A study of Caenorhabditis elegans with 2 samples.

Results

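Translation factors are the soluble proteins that load ribosomes onto mRNA (initiation factors, eIF) and then move them along it (elongation factors, eEF). The genes described here are all protein-coding genes of the WBcel235 annotation (Ensembl release 115) of Caenorhabditis elegans whose names start with eif- or eef-. There were 31 of them, 25 eif- and 6 eef- genes, among the 19973 that the annotation places on the 6 nuclear chromosomes. They were chosen by name and not selected on any measured value, but the set was proposed with earlier results of these data known, so their binding values are given as a description and no p-value was computed. Both initiation and elongation factors are among them, but 2 names reach beyond the initiation step. EIF-4A3 is the RNA helicase of the exon junction complex, and EIF-6 keeps the large ribosomal subunit from joining too early and takes part in its assembly. Some initiation factors carry other names (ife-, ifg-, inf-, iff-) and fall outside the rule. They are set beside the 31 genes further on.

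The measurements are ChIP-seq peaks of LIN-35, the Rb-family pocket protein of the worm and a subunit of the repressive DREAM complex, in whole L1 larvae. The strain was YL409, with the allele unc-119(ed3) on chromosome III and the integrated transgene vrIs60, which rescues unc-119 and expresses LIN-35 with a GFP and FLAG tag under the lin-35 promoter. The larvae were of mixed sex, and the labels name no mutation of lin-35 itself. The labels give lin-35 as the ChIP target and describe the protein as tagged, and no input or untagged strain was analysed here. There was 1 group with 2 biological replicates, so values are set against all genes and between replicates, not between conditions. In whole larvae, binding in few cells and weak binding in many cells cannot be told apart. A gene is called bound here when its annotated 5′ end has a summit at most 500 bp away in the authors' list of reproducible peaks. That list was made by irreproducible discovery rate (IDR) analysis of the replicates. Rank 1 is the strongest of the 3838 IDR peaks by the authors' signal value, which ranks peaks within a list only. The IDR list ends at a signal of 56.0. Read depth is unknown.

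As background, eIF1 and eIF1A help the small ribosomal subunit find the start codon. eIF2 brings the initiator tRNA, and eIF2B recharges eIF2 with GTP, a step that eIF2 phosphorylation shuts down under stress. eIF3 is the large scaffold that holds the small subunit and the mRNA together. eEF1A carries each aminoacyl-tRNA to the ribosome, the eEF1B and eEF1G proteins form its exchange factor, and eEF2 drives translocation. Rb-family proteins are best known for restraining cell cycle genes through E2F and DREAM.

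The stretches around some of these summits are shown first, because they carry strong peaks (eif-3.B and several eef- genes), both peaks of the eEF1A pair, or matches to the E2F consensus. All are from the RefSeq WBcel235 genome (the same assembly as ce11), 5′ to 3′ on the strand of the named gene, within 50 bp of the summit and outside annotated protein-coding genes. Capitals mark matches on either strand to an E2F word or a CHR word. The E2F words searched were TTCCCGC and, as a variant, TTCGCGC, together with the word TTGCCGC and with its close relative TTGGCGC. The CHR word was TTTGAA, or else TTCGAA. The CHR is the element recognised by the LIN-54 subunit of DREAM. None of the words contains another. The eef-1A.1 stretch is chrIII:6972036-6972136 (minus strand), eef-1A.2 is chrX:7823240-7823340, eef-1B.2 is chrIV:15037101-15037201 and eef-1G is chrV:10965631-10965718. The eif-3.B stretch is chrII:14795092-14795192, eif-3.D is chrIII:8971784-8971884 (minus strand), eif-2A is chrII:10416618-10416718 and eif-2Bdelta is chrV:9513737-9513823.
eef-1A.1: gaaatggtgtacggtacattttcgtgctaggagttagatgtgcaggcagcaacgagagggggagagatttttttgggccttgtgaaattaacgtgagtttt
eef-1A.2: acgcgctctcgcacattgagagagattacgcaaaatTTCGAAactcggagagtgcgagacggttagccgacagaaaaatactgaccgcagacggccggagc
eef-1B.2: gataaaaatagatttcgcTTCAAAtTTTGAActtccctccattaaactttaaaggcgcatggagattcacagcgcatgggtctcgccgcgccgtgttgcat
eef-1G: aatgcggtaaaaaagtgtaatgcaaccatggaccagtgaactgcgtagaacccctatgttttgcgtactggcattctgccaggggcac
eif-3.B: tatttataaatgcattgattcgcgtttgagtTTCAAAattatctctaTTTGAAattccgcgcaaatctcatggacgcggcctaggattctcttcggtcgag
eif-3.D: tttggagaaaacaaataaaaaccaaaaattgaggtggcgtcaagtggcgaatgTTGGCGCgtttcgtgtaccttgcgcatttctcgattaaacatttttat
eif-2A: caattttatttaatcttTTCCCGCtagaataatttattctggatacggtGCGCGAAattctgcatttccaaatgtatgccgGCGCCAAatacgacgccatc
eif-2Bdelta: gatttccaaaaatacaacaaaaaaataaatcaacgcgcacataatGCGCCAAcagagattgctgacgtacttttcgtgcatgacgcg

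In these 8 stretches the E2F word appeared at eif-3.D, eif-2A and eif-2Bdelta, the CHR word at eef-1A.2, eef-1B.2 and eif-3.B, and neither at eef-1A.1 or eef-1G. The eef-1B.2 stretch held its CHR words 1 base apart on opposite strands.

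LIN-35 lay at the starts of most of these genes. Of the 31 genes, 24 were bound (77.4%), against 2722 of all 19973 protein-coding genes (13.6%). All 6 eef- genes were bound, and 18 of 25 eif- genes were. Among the bound genes 7 of 24 (29.2%) had a peak among the 384 strongest of the IDR list, against 17.1% of all bound genes. The median rank of the 24 was 906.5, with a range of 14 to 2895, against a median of 1305 over all bound genes. The median signal was 252 at the 24 genes and 181 over all bound genes. With the 3838 strongest peaks of a single replicate in place of the IDR list, 24 of 31 were bound in replicate 1 (13.1% of all genes) and 24 in replicate 2 (13.6% of all genes). They were the same 24 genes each time. Within 1000 bp 26 of 31 were bound (17.2% of all genes). Within 250 bp the count dropped to 15 of 31 (9.10% of all genes), since 9 summits lay farther out, those of eif-1, eif-1.A, eif-3.B, eif-3.D, eif-3.G, eif-4A3, eif-6, eef-1A.1 and eef-1A.2.

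**Figure D1:**
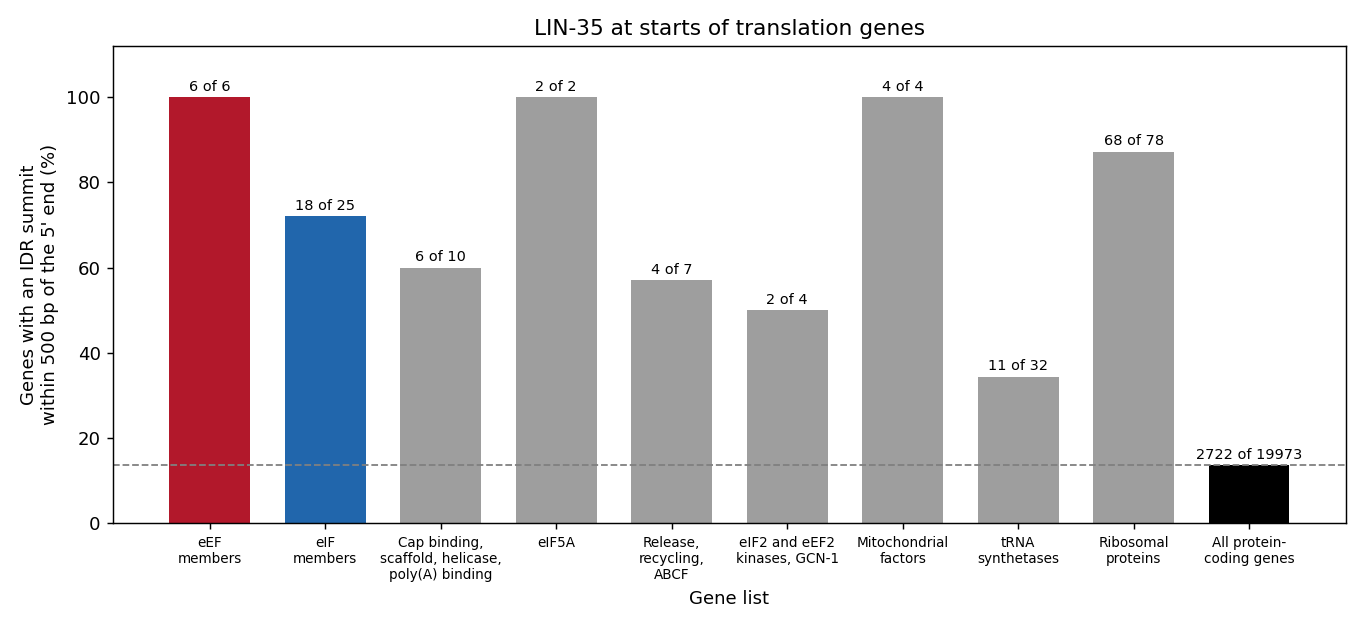
Share of bound genes, in percent, for the eEF and eIF genes described here, for other translation genes and for all protein-coding genes. The bars carry the counts, the dashed line marks the 13.6% of all genes, and every list shown lies above it, from 11 of 32 tRNA synthetases to 6 of 6 eEF genes.

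The elongation factor genes held the strongest peaks as a group. The 6 eef- genes had a median rank of 175, against 1254 for the 18 bound eif- genes, a difference that was not tested. The eef-2 gene (WBGene00001167), for the translocase, had the peak of rank 14 (chromosome I, 9163329 to 9163697, signal 2032). It ranked 12 in replicate 1 (signal 638) and 16 in replicate 2 (signal 1402). Its summit lay 7 bp upstream of the annotated start and between genes.

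Both genes for eEF1A were bound, but at different ranks. The eef-1A.1 gene (WBGene00001168) on chromosome III had the peak of rank 107 (6971937 to 6972243, signal 1161), with rank 65 in replicate 1 and 131 in replicate 2. The eef-1A.2 gene (WBGene00001169) on the X chromosome had the peak of rank 696 (7823174 to 7823463, signal 316), with rank 628 in replicate 1 and 756 in replicate 2. Each replicate thus placed eef-1A.1 above eef-1A.2. The translated coding sequences of the genes are identical over all 463 residues. The summits lay at similar distances, 374 bp upstream of eef-1A.1 and 364 bp upstream of eef-1A.2. The eef-1A.1 summit was nearer to the start of rfc-4 on the opposite strand (167 bp). The 1000 bp upstream of the genes shared no run longer than 12 bp, so the peak regions are distinct sequence. A miRNA gene, cel-mir-5549, also starts within 500 bp of the eef-1A.1 summit, and a noncoding RNA gene, R03G5.8, within 500 bp of the eef-1A.2 summit.

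The genes of the eEF1 exchange factor were all bound, eef-1G at a rank near that of eef-1A.1 and both eef-1B genes behind it in the IDR list and in each replicate. The eef-1G gene, for the gamma subunit, had the peak of rank 131 (chromosome V, 10965543 to 10965840, signal 1070), with rank 170 in replicate 1 and 120 in replicate 2. The eef-1B.1 peak ranked 219 (chromosome III, 7973245 to 7973511, signal 790), with rank 384 in replicate 1 and 180 in replicate 2. The eef-1B.2 peak ranked 225 (chromosome IV, 15037028 to 15037312, signal 761), with rank 328 in replicate 1 and 210 in replicate 2. The eef-1B.1 and eef-1B.2 proteins differ in length (213 and 440 residues), and 60 aligned residues were identical. Within replicates the order of eef-1G above both eef-1B genes held, while that of the eef-1B genes differed: eef-1B.2 was ahead in replicate 1 and eef-1B.1 in replicate 2.

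**Figure D2:**
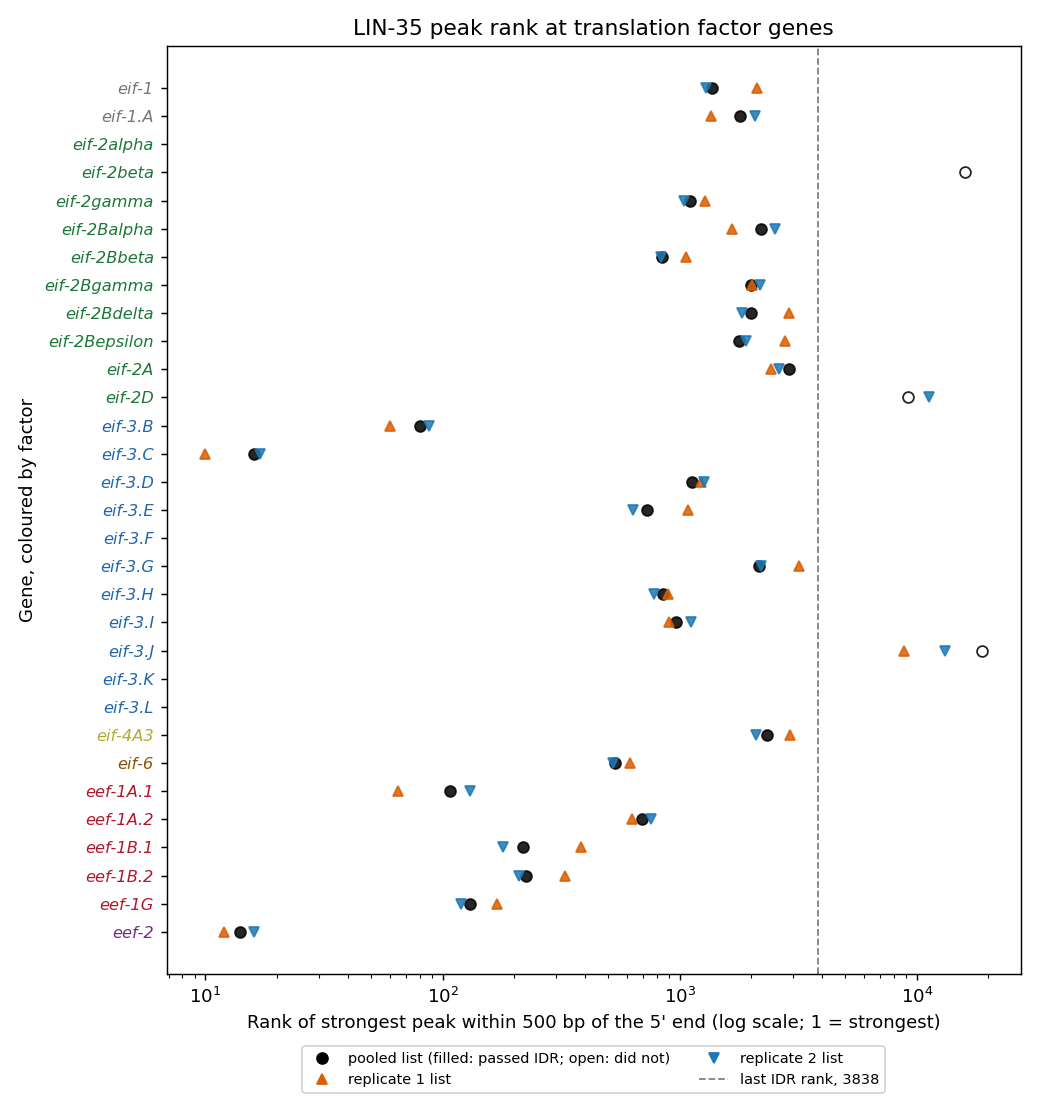
Rank of the strongest peak with its summit within 500 bp of the 5′ end (log scale, 1 is strongest) for all 31 genes, in the pooled list (circles, filled where the peak passed IDR), replicate 1 (triangles up) and replicate 2 (triangles down); the dashed line is the last IDR rank, 3838. Apart from eef-1A.2 (rank 696) the eef- genes lie to the left with eif-3.B and eif-3.C, and 4 genes have no symbol because no list held a peak there.

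The eIF3 genes spanned nearly the whole range. The name rule takes in 11 subunit genes, eif-3.B to eif-3.L and no eif-3.A, and 7 of them were bound. The eif-3.C gene (WBGene00001226) had the peak of rank 16 (chromosome I, 9979741 to 9980082, signal 2003), at rank 10 in replicate 1 and 17 in replicate 2. The eif-3.B gene (WBGene00001225) had the peak of rank 80 (chromosome II, 14794935 to 14795308, signal 1291), at rank 60 in replicate 1 and 88 in replicate 2. Both encode core subunits of the scaffold. The other 5 bound genes were far lower: eif-3.E ranked 729, eif-3.H 850, eif-3.I 963, eif-3.D 1132 and eif-3.G 2165. Genes for eif-3.F, eif-3.J, eif-3.K and eif-3.L were not bound, so the call differed among subunits of 1 complex.

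All 5 eIF2B genes were bound at moderate ranks, and only 1 of 3 eIF2 genes was. The eIF2B genes ranked from 841 (eif-2Bbeta) to 2192 (eif-2Balpha), with a median of 1990, against 1305 over all bound genes. In replicate 1 the 5 ranks lay between 1058 and 2897, and in replicate 2 between 837 and 2517. Each of the 5 calls depended on a setting. Among the stronger 1919 peaks eif-2Balpha, eif-2Bgamma and eif-2Bdelta were lost, and with nearest start only eif-2Bbeta and eif-2Bepsilon. The eif-2gamma call held in both of these settings. Of the eIF2 subunits, eif-2gamma, which holds the GTP and the initiator tRNA, was bound at rank 1101 (signal 216), with rank 1278 in replicate 1 and 1046 in replicate 2. The eif-2alpha gene, whose product is the subunit phosphorylated under stress, and eif-2beta were not bound. The eif-2beta call depended on the setting: within 1000 bp, or with any annotated transcript start, it was bound (rank 2404). The eif-2A gene, for an alternative initiation factor, had the weakest bound peak, at rank 2895 (signal 79.5). The eif-2D gene, for another factor that can deliver initiator tRNA, was not bound.

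The remaining eif- genes were bound, with eif-6 the strongest of them. The eif-6 peak ranked 531 (chromosome I, 12968500 to 12968737, signal 405), with rank 616 in replicate 1 and 522 in replicate 2. The eif-1 peak ranked 1375, with rank 2116 in replicate 1 and 1290 in replicate 2. The eif-1.A peak ranked 1803, with rank 1351 in replicate 1 and 2068 in replicate 2, so the replicates ordered these start codon factors differently. The eif-4A3 peak ranked 2331 (signal 103) and had the most distant summit, 465 bp from the annotated start. That summit was 6 bp from the start of the neighbouring gene vps-20.

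All 24 bound genes had a summit within 500 bp of the start in both replicate lists. Since the IDR list was made from these replicates, whose lists hold 23861 and 30000 peaks, that count was nearly fixed in advance. The same share over all bound genes was not computed. The ranks differed between replicates by a median factor of 1.43, and by the widest factor, 2.13, at eef-1B.1. Of the 24, 11 ranked higher in replicate 1 and 13 in replicate 2. Spearman's rho of the ranks was 0.929 across the 24 genes, given as a description since the IDR list was made from both replicates. The summits of the replicates lay a median of 16.5 bp apart and at most 51 bp.

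**Figure D3:**
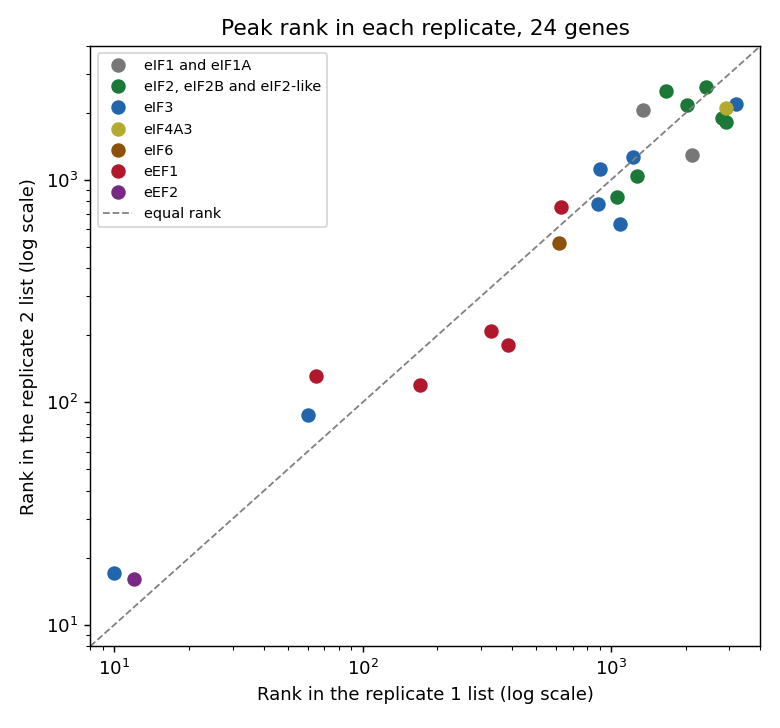
Rank of the peak in replicate 2 against replicate 1 for the 24 bound genes, both axes on log scales, coloured by factor, with the line of equal rank dashed. The points follow the line over the whole range, from eif-3.C (10 and 17 in replicates 1 and 2) to eif-3.G (3199 and 2204).

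The summits lay upstream of the genes. Of the 24 summits 23 (95.8%) were upstream of the annotated 5′ end, against 91.7% of all bound genes. The median distance was -195 bp at the 24 genes and -173 bp over all bound genes, where negative is upstream. The exception was eef-1B.1, whose summit lay 7 bp inside its own 5′ UTR. At eif-1 and eif-4A3 the summit lay in the 5′ UTR of the neighbours vps-24 and vps-20, which both encode ESCRT-III proteins. The other 21 summits lay between protein-coding genes. Groups differed in the distance, which was not tested. All 7 bound eIF2 and eIF2B type genes had the summit within 153 bp and the 7 bound eIF3 genes between 189 and 335 bp. At eif-1 and eif-1.A it lay 418 and 368 bp away. The summits of eif-1, eif-2Bbeta, eif-2Bepsilon, eif-3.D and eif-3.H lay nearer to the start of a neighbouring gene. These distances run from the start of the gene record, which can lie downstream of the true promoter in trans-spliced genes.

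Many summits lay within 500 bp of a second start, at these genes and over all bound genes alike. Of the 24 bound genes 12 (50%) shared the summit with the start of another protein-coding gene, against 45.0% of all bound genes, a share close to the background. All 12 neighbours were on the opposite strand, so each pair was divergent. The share of divergent pairs over all bound genes was not computed, so this count has no background beside it. For these 12 genes the peak cannot be assigned to 1 gene of the pair.

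Among the elongation factor genes 4 of 6 summits were shared. The eef-1A.1 summit was 167 bp from the start of rfc-4, which encodes a clamp loader protein, and 374 bp from its own gene. The eef-1G summit was 142 bp from ctf-4, a protein of the replication fork, and 38 bp from its own gene. The eef-2 summit was 258 bp from clsp-1, the worm claspin that signals from stalled forks, and 7 bp from its own gene. The eef-1B.1 summit was shared with aco-2, the mitochondrial aconitase, whose start was 338 bp away. The eef-1A.2 and eef-1B.2 summits were not shared.

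Among the eif- genes 8 of 18 summits were shared. The eif-6 summit was shared with pbs-2, a core subunit of the proteasome, at 318 bp from eif-6 and 348 bp from pbs-2. The eif-3.I summit was shared with abtm-1, a mitochondrial ABC transporter, and lay nearer to eif-3.I (201 bp) than to abtm-1 (269 bp). The eif-2Bepsilon summit lay 133 bp from its own gene and 24 bp from piga-1, an enzyme of GPI anchor synthesis. The summits at eif-2Bbeta, eif-3.D and eif-3.H were shared with Y47H9C.8, R08D7.4 and C41D11.3 and were nearer to those genes. The eif-1 summit was 0 bp from the start of vps-24 and 418 bp from its own gene. The eif-4A3 summit was 6 bp from the start of vps-20 and 465 bp from its own gene. With each peak given only to its nearest start, 17 of the 31 genes stayed bound (54.8%), against 10.6% of all genes. The 7 lost were eif-1, eif-2Bbeta, eif-2Bepsilon, eif-3.D, eif-3.H, eif-4A3 and eef-1A.1.

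**Figure D4:**
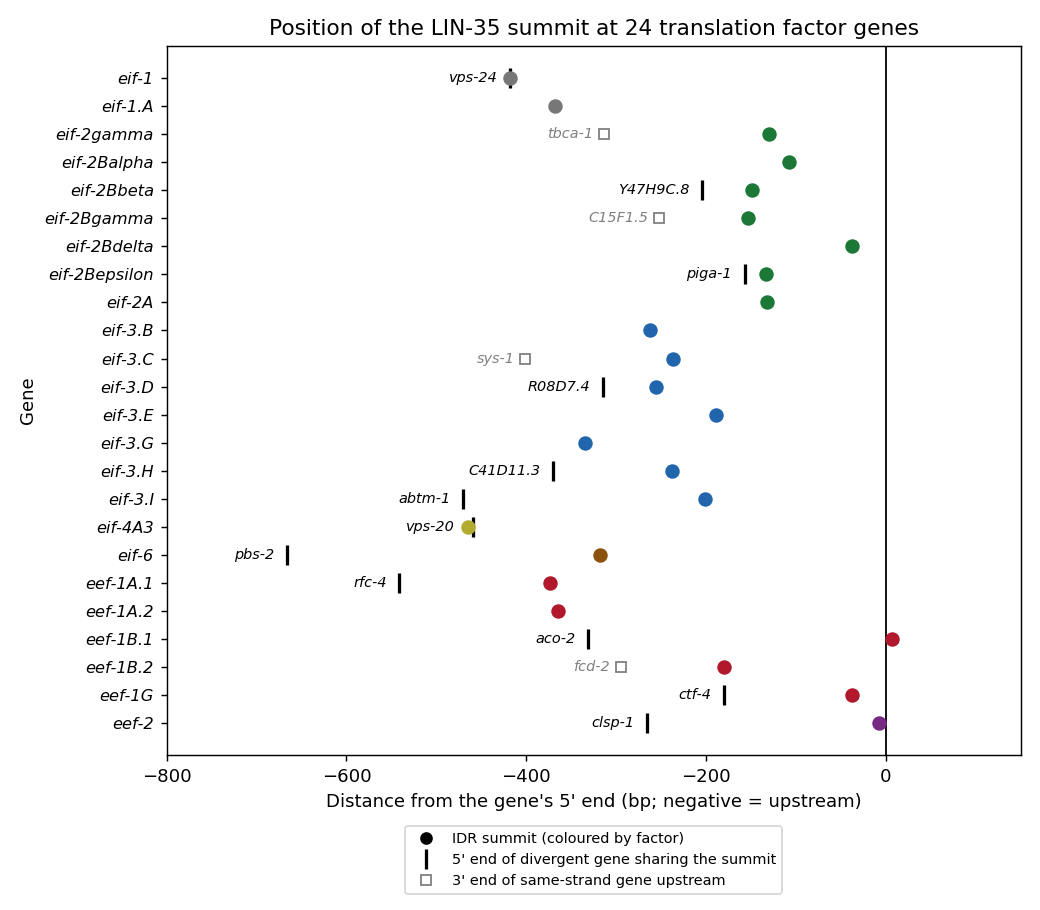
Position of the IDR summit (dots, coloured by factor) relative to the annotated 5′ end of each of the 24 bound genes, in bp, negative upstream. Black ticks mark the 5′ end of a divergent gene that shares the summit and grey squares the 3′ end of a same-strand gene just upstream; 23 of 24 dots lie left of 0.

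Several of these genes sit in candidate operons, in which worm genes are transcribed together from an upstream promoter. By position, 6 of the 31 genes had a same-strand protein-coding neighbour whose end was at most 500 bp before their start. Of these 6, 4 were bound (66.7%), against 341 of 3618 such genes genome-wide (9.43%). In all 4 the summit lay in the gap between the genes. They were eif-3.C, 237 bp downstream of the summit in the 401 bp gap after sys-1 (a beta-catenin), and eef-1B.2, 180 bp downstream of it in the 295 bp gap after fcd-2 (the worm FANCD2). The other 2 were eif-2gamma (130 bp, in the gap of 313 bp after tbca-1) and eif-2Bgamma (153 bp, in the gap of 252 bp after C15F1.5). At eif-3.C the internal peak ranked 16, while that of the first gene of the chain, sys-1, ranked 547. At eif-2Bgamma the internal peak ranked 1990, behind that of the first gene, sod-1, at rank 271. At eif-2gamma both were alike, rank 1101 and, at Y39G10AR.9, rank 1122. At eef-1B.2 the first gene of the chain, Y41E3.7, had none.

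The 7 genes that were not bound fell into different cases. The eif-2alpha gene follows phb-1 (prohibitin) by 133 bp on the same strand, and the IDR summit nearest to it lay 1804 bp upstream, 476 bp before phb-1 (rank 597, signal 363). The eif-2beta record starts 990 bp before the first start codon, and an IDR summit of rank 2404 (signal 99.8) lay 748 bp inside the gene, in its intron and 212 bp from another annotated transcript start. The nearest IDR summit to eif-3.J lay 947 bp upstream, in the 3′ UTR of slc-25A46 (rank 792, signal 281). For eif-3.K it lay 1504 bp upstream, and for eif-2D, eif-3.F and eif-3.L it was 6691, 8518 and 22758 bp away. The eif-3.F gene follows wbp-2 by 116 bp, and the first gene of that chain, egli-1, had no IDR summit either.

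Weak peaks below the threshold were found at 3 of these 7 genes (42.9%), against 27.2% of all genes that were not bound. With any of the 30000 pooled peaks counted, 27 of 31 genes had a summit within 500 bp, against 37.1% of all genes. Just below the threshold there was a wide gap: the weakest bound peak, at eif-2A, had a signal of 79.5, and the next, at eif-2D, one of 21.6 at pooled rank 9191, with a peak in replicate 2 (rank 11266) and none in replicate 1. The pooled peak at eif-2beta had a signal of 14.6 and no match in either replicate list within the window. At eif-3.J it had one of 13.1, with ranks of 8821 and 13199 in replicates 1 and 2 at different sides of the start. No list held a peak within 500 bp of eif-2alpha, eif-3.F, eif-3.K or eif-3.L.

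An E2F word lay within 50 bp of 4 of 24 summits (16.7%, exact 95% interval 4.74 to 37.4), against 13.0% of all 3838 IDR summits and 3.57% of windows of equal length centred 150 bp upstream of all protein-coding genes. Within 100 bp of the summit the count was 7 of 24 (29.2%, exact interval 12.6 to 51.1), against 18.3% of IDR summits. The 4 within 50 bp were eef-2 with 2 matches, eif-2A with 3, and eif-2Bdelta and eif-3.D with 1 each. The gene with most matches, eif-2A, thus had the lowest rank of the 24, and eef-2 the highest. The CHR words lay within 50 bp of 7 of 24 summits (29.2%, exact interval 12.6 to 51.1), against 24.6% of IDR summits and 34.1% of promoter windows, so they were no more frequent at IDR summits than in promoters at large. At eef-2 both elements were present. A further word, CTGCGTC, was found at 0 of 24 summits (exact upper bound 14.2%), against 13.5% of IDR summits and 1.78% of promoter windows. Within 100 bp it was again found at 0 of 24 (exact upper bound 14.2%), against 18.4% of IDR summits. The GC content within 50 bp of the summit had a median of 44.6% at the 24 genes and 47.5% over all IDR summits.

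Other translation genes gave shares above and below the 77.4% of the 31 genes. In each of these lists the share lay above the 13.6% of all protein-coding genes. Of 78 cytosolic ribosomal protein genes 68 were bound, with rpl-3, rpl-35 and rpl-24.2 strongest (ranks 1, 10 and 42). Within 250 bp that count was 15 of 78 (9.10% of all genes), since most of their summits lay farther out. With nearest start only it was 42 of 78 (10.6% of all genes). Of the 68 bound genes 39 shared the summit with another protein-coding start, against 45.0% of all bound genes. Of 10 genes for cap binding, scaffold, helicase and poly(A) binding proteins, 6 were bound, led by ife-3 (an eIF4E, rank 480), pab-1 (a poly(A) binding protein, rank 1031) and inf-1 (the eIF4A helicase, rank 1222). Both eIF5A genes, iff-2 (rank 135) and iff-1 (rank 688), were bound. Of the kinases that act on eIF2 or eEF2 and the activator gcn-1, 2 of 4 were bound, gcn-1 (rank 22) and gcn-2 (rank 108), while pek-1 and efk-1 were not. Of 7 release, recycling and ABCF genes 4 were bound, erfa-1 (rank 1035), abcf-3 (rank 1086) and abcf-1 (rank 2156) strongest. All 4 mitochondrial translation factor genes found in the annotation were bound, tufm-1, tufm-2 and gfm-1 strongest (ranks 1021, 1440 and 1500). Of 32 aminoacyl-tRNA synthetase genes 11 were bound (34.4%, against 13.6% of all genes), with vars-1, sars-2 and aars-2 strongest (ranks 152, 300 and 676). Within 250 bp 3 of 10 genes of the cap binding list, 1 of 4 of the kinase list and 1 of 7 of the release list were bound. So were 7 of 32 synthetase genes, and the eIF5A and mitochondrial counts did not change (9.10% of all genes). With nearest start only these lists gave 6 of 10, 1 of 4, 2 of 7 and 8 of 32 (10.6% of all genes). There 1 of 2 eIF5A genes and 3 of 4 mitochondrial genes stayed bound. The peaks of ife-3, pab-1, iff-1, gcn-2, erfa-1, abcf-3, abcf-1 and tufm-2 were shared with other genes, among them rpl-30 at pab-1 and cdk-1 at iff-1.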

How the data were processed

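LIN-35 ChIP-seq peak lists from 2 biological replicates of 1 group were used in ce11. The deposited lists give a signal value and a −log10 q-value per peak. The deposited manifest says that a control was used for every list, that the replicates were pooled for a further list and that IDR compared these 3 lists. No caller or IDR cutoff is stated in the sources used here. In ce11 the IDR list is exactly the strongest 3838 of 30000 pooled peaks by signal, and its q-values do not vary, so peaks were ranked by signal. Replicate ranks run over the whole list, including 26 mitochondrial peaks in replicate 1. The ce10 lists were not used, since no coordinate was converted.

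The summit is column 2 plus column 10, and printed coordinates start at 1. Genes came from Ensembl release 115, whose assembly, WBcel235, is ce11. A gene took the strongest IDR summit at most 500 bp from where its record starts. Sequences were read from the RefSeq genome of that assembly, and proteins were translated from it and aligned with Biopython 1.88 (BLOSUM62). The planned protein table was not used here. Exact intervals came from scipy 1.17.1 and cover counting error only. The summit search was tested on simulated peaks.

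The genes, lists and alternatives were chosen with earlier results of these data known, so no list test was made. The genes named are all 31, those sharing a summit with one of them, and the 3 strongest of each related list. Same-strand neighbours, first genes of operon chains, noncoding genes, slc-25A46, pek-1, efk-1 and the genes sharing a summit with a related gene (rpl-30, cdk-1) were added after their values were seen. Symbols not matched in the annotation were iftb-1, etf-1, gfm-2, mtif-2, mtif-3 and mtrf-1. Alternatives were the stronger 1919 IDR peaks, each replicate alone, windows of 250 and 1000 bp, any transcript start, nearest start only and no candidate operon genes. Looking at the first gene of an operon chain was added after seeing the data.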

Additional observations from a re-analysis of the deposited data

How the results depend on the processing

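The count of 24 bound genes was 24 in both replicates alone and 18 among the stronger 1919 peaks (8.86% of all genes). It was 26 within 1000 bp (17.2%), 15 within 250 bp (9.10%) and 25 with any transcript start (14.4%). It was 17 with nearest start only (10.6%) and 20 of 25 without candidate operon genes (14.6%). Also counting a peak at the first gene of the chain gave 25. That setting could only keep or raise the count, and its share over all genes was not computed. In 7 settings (stronger peaks, each replicate, both windows, any transcript start, nearest start) 8 genes stayed bound throughout: eef-1B.1, eef-1B.2, eef-1G, eef-2, eif-2gamma, eif-3.C, eif-3.E and eif-3.I. The share of all genes that stayed bound throughout was not computed, so this count has no background to be set against. The median rank of 906.5 moved to 712.5 among the stronger peaks, by construction, and to 729 with nearest start only, and ran from 941.5 to 1072 in single replicates. The count of 12 shared summits was 4 within 250 bp. The CHR share was 54.2% within 100 bp of the summit, where all IDR summits had 43.3%, and the E2F share 29.2% there and 11.1% (2 of 18) among the stronger peaks. The median distance of 195 bp upstream (-195) lay between -195.5 and -190.5 in single replicates. Requiring 50% overlap of the IDR peak left 21 of 24 peaks matched in both replicate lists, a count not made over all IDR peaks. Unknown depth limits what can be said of genes without a peak. No paired analysis was possible because there is 1 group.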
